A study of Mus musculus with 24 samples.

Results

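The respiratory chain genes of the mouse cell nucleus were described in livers with and without the clock transcription factor BMAL1. They were taken by name: every gene whose symbol in the authors' comparison tables begins with the field's stems for subunits of complexes I to V and whose mean over all libraries was at least 5 TPM, a gene's length-corrected share of the transcripts in a library. The pattern matched 88 symbols, of which 79 reached that level, out of 56941 genes in the tables. They comprised 36 genes assigned to complex I, 4 to complex II, 8 to complex III, 13 to complex IV and 18 to complex V. The 9 symbols left out included Ndufa4l2 at 2.46 TPM and Cox7a1, a muscle isoform, at 1.73 TPM. The lowest genes inside were Ndufc1 at 18.0 TPM and Cox5b-ps at 23.1 TPM, so no gene lay close to the limit. By its symbol Cox5b-ps is a pseudogene of Cox5b, and it is counted with complex IV by name only. The pattern leaves out subunits with other names, such as Cyc1 and Ndufab1, and the 13 protein genes of mitochondrial DNA, which are treated apart.

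The liver was sampled in 8 groups of 3 libraries each, 24 in all. Global knockouts (KO), Bmal1-/- mice on a C57BL/6J background, were set against their Bmal1+/+ counterparts (WT). Liver-specific knockouts (LKO) carried floxed Bmal1 alleles and Alb-Cre, Cre recombinase under the albumin promoter, which is active in cells of the hepatocyte lineage. Their controls (F) carried the floxed alleles without Cre, so both LKO and F were floxed and no group carried Cre alone. The 2 circadian times were CT2, soon after the start of the subjective day, and CT14, soon after the start of the subjective night. The labels used here give no age or sex, no background strain for LKO and F, and no statement that the replicates of a group were separate animals. Should they be repeat samples of the same animals, a p-value here would reflect technical spread alone.

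Complexes I to IV of the inner mitochondrial membrane pass electrons from NADH and succinate to oxygen, and complexes I, III and IV pump protons as they do so. Complex V, the ATP synthase, lets the protons back and makes ATP. Most subunits are encoded in the nucleus and imported, while a small set is encoded in mitochondrial DNA. In hepatocytes the chain serves gluconeogenesis, urea synthesis and the oxidation of fatty acids. BMAL1 binds with CLOCK at E-boxes, and nuclear chain genes are known as targets of the factors NRF1, GABP (an ETS factor) and ERR alpha.

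Promoters of 65 of the 79 genes were found in the RefSeq promoter table for build GRCm38.p6, each from 250 bases before to 50 bases after a gene's start. Motifs were searched on both strands by exact letters, and overlaps between motifs were allowed. The NRF1 motif (GCGC, any base, then TGCGC) stood in 18 of the 65, or 27.7%, against 5.19% of 27025 genes in the table. The ETS motif CCGGAAG stood in 16 (24.6%, against 9.93%), the ERR motif AAGGTCA in 9 (13.8%, against 5.38%) and the YY1 motif AAGATGGCG in 7 (10.8%, against 1.64%). The E-box CACGTG stood in 7 (10.8%, against 8.09%): Ndufa7, Ndufv1, Atp5mc3, Atp5mg, Atp5mc1, Atp5pb and Atp5if1. The next lines show the genes that the comparisons turn on and Ndufv1, the NADH-binding subunit of complex I, as the example with an E-box. Motif letters are in capitals, and all are written 5′ to 3′ along the gene's strand.
Ndufb8: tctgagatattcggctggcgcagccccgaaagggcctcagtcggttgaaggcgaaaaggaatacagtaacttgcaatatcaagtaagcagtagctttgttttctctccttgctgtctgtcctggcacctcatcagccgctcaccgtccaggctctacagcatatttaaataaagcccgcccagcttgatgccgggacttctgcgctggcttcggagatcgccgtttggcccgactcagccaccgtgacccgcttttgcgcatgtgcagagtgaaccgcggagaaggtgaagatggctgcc
Ndufc2: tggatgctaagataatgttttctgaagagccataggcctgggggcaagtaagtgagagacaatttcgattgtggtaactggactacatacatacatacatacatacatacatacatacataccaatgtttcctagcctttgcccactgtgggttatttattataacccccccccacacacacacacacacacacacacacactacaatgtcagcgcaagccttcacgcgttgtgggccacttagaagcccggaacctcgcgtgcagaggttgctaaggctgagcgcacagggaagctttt
Cox7a2l: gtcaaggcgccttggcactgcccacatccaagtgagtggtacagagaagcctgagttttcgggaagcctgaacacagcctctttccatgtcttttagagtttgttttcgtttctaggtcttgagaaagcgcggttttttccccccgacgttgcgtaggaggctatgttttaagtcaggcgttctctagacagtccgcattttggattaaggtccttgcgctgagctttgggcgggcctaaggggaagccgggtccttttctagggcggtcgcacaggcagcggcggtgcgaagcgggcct
Sdha: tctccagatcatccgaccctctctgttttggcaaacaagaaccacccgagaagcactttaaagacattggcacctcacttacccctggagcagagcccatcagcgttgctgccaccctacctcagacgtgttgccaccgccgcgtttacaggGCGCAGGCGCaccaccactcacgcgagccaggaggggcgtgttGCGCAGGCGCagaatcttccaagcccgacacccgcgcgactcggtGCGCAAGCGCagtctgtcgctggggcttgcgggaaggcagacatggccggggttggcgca
Sdhd: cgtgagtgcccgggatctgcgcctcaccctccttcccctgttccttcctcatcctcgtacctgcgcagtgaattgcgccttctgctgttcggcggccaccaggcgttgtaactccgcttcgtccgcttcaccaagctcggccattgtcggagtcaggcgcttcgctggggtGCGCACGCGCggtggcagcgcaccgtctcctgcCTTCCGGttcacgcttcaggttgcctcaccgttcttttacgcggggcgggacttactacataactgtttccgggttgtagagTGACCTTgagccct
Ndufv1: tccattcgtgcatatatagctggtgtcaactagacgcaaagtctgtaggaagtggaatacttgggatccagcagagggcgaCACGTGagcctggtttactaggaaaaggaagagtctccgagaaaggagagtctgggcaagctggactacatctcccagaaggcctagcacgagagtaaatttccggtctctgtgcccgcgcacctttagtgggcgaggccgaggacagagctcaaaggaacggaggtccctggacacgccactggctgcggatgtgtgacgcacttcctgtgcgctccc
The windows lie at chr19:44555393-44555692 on the minus strand for Ndufb8, chr7:97399753-97400052 on the plus strand for Ndufc2 and chr17:83514284-83514583 on the minus strand for Cox7a2l. Those of Sdha at chr13:74350191-74350490, Sdhd at chr9:50603800-50604099 and Ndufv1 at chr19:4012706-4013005 are on the minus strand. Sdha had 3 NRF1 matches, the one nearest its start beginning at base -10. Sdhd had an NRF1 match at base -79, an ETS match at base -46 and an ERR match at base 36. Ndufv1 had its E-box at base -169. In the windows of Ndufb8, Ndufc2 and Cox7a2l none of these letter strings was present. A match of letters is a description and shows no binding.

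The genotype labels were first checked on Bmal1 itself. At CT2, Bmal1 stood at 4.29, 4.69 and 5.08 TPM in KO livers, against 16.6, 18.8 and 19.3 TPM in WT livers. It stood at 4.90, 5.59 and 3.73 TPM in LKO livers at CT2, against 16.6, 15.6 and 15.2 TPM in F livers. The groups did not overlap, and Bmal1 fell by 2.11 ± 0.36 on the log2 scale in KO and by 1.95 ± 0.36 in LKO at CT2 (SE; edgeR, adjusted p = 0.00576 and 0.0112). At CT14 Bmal1 was lower in WT livers than at CT2, and the values of knockouts and controls overlapped. They were 4.15, 4.44 and 4.44 TPM in KO livers, against 3.56, 1.41 and 4.56 TPM in WT livers. In LKO livers they were 4.03, 3.67 and 3.95 TPM, against 1.56, 8.49 and 6.14 TPM in F livers. Bmal1 transcripts thus check the labels at CT2 and not at CT14. Dbp, a further clock gene, stood at 30.7, 5.73 and 11.8 TPM in F livers at CT14, against 26.0, 32.6 and 20.3 TPM in WT livers. The F replicates at CT14 thus differed among themselves in both genes, and the part of this in the comparisons was not tested.

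Total counts per library ran from 8.90e+07 to 1.32e+08. Summed hepatocyte markers stood between 56203 and 113646 TPM, so all libraries carried liver transcripts. Some libraries stood apart for the respiratory chain genes. KO CT2 replicate 1 was the highest of its group for 75 of the 79 genes in TPM and the highest of all 24 libraries for 32. F CT2 replicate 2 was the lowest of all 24 for 35 genes, and WT CT2 replicate 1 the lowest of its group for 74. F CT2 replicate 3 and LKO CT2 replicate 3 had the lowest shares of counts from mitochondrially encoded genes, 1.37% and 1.82%, against 2.11% to 4.92% in the other libraries. F CT2 replicate 3 also held 3869 TPM of pancreatic acinar markers and F CT14 replicate 3 held 1059 TPM, against a median of 142 TPM, and LKO CT2 replicate 2 held 44.0 TPM of skeletal and heart muscle markers, against a median of 1.95 TPM. KO CT14 replicate 3 held 323 TPM of cholangiocyte markers, against a median of 72.9 TPM, and F CT14 replicate 2 and LKO CT2 replicate 2 held 141 and 136 TPM of neutrophil markers, against a median of 19.6 TPM. Spermatid markers summed to 14.2 to 64.2 TPM in LKO and F libraries and to 0.149 to 1.59 TPM in WT libraries. Among KO libraries, CT2 replicate 2 and CT14 replicate 1 held 17.4 and 17.0 TPM, and the others 0.536 to 1.36 TPM. These 2 KO libraries were left out together in an alternative fit. The part of these cells and transcripts in the results was not tested.

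In length-corrected TPM the genes differed more between subunits than between complexes. Complex I genes had a median of 132 TPM, and those of complexes II, III, IV and V had medians of 303, 327, 300 and 295 TPM. The highest was Atp5f1b, the catalytic beta subunit of ATP synthase, at 1164 TPM. It was followed by Cox4i1, a regulatory subunit of cytochrome c oxidase, at 1079 TPM and Cox6a1, the liver-type subunit VIa, at 1014 TPM. Within complex III, the highest and lowest genes, Uqcrq at 399 TPM and Uqcrb at 207 TPM, lay within a ratio of 1.93. Complex II spanned a ratio of 3.68, with the iron-sulfur subunit Sdhb at 337 TPM, the flavoprotein Sdha at 324 TPM and the membrane anchors Sdhd at 281 TPM and Sdhc at 91.5 TPM. Complex I spanned 21.5, with accessory subunits at both ends, Ndufb9 at 386 TPM and Ndufc1 at 18.0 TPM. Its catalytic core subunits lay between, such as Ndufs8 at 201 TPM, Ndufs7 at 159 TPM, Ndufv1 at 154 TPM and Ndufs1 at 78.4 TPM. In complex III the core protein Uqcrc1 stood at 322 TPM and the Rieske protein Uqcrfs1 at 273 TPM, and in complex IV Cox6c stood at 386 TPM and Cox5a at 300 TPM. Complex V spanned 29.8, with the alpha subunit Atp5f1a at 751 TPM, down to Atp5if1, the inhibitor of the enzyme's reverse reaction, at 39.0 TPM.

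**Figure D1:**
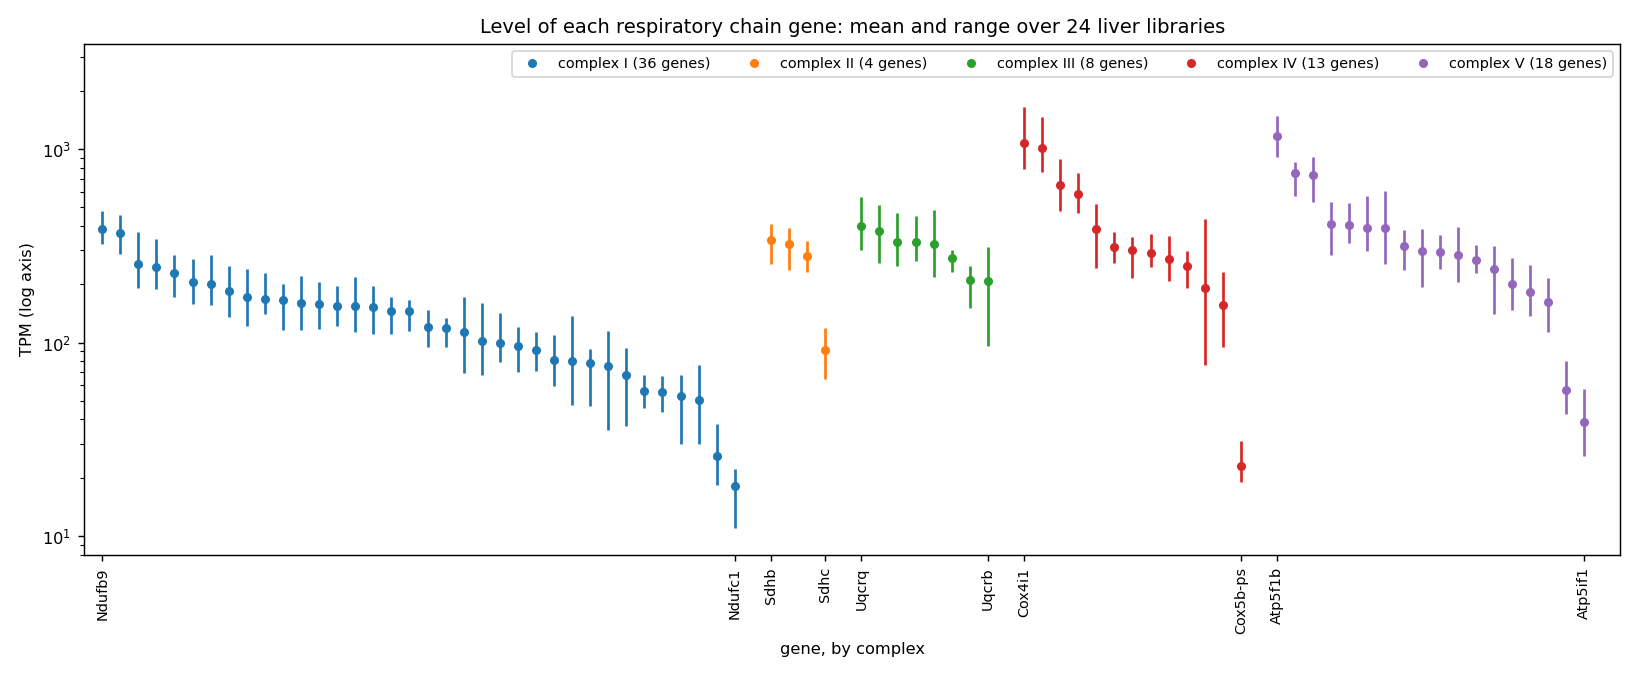
Mean level in TPM on a log axis (points) and range over the 24 liver libraries (vertical lines) of the 79 respiratory chain genes, ordered by mean within complexes I to V, with the highest and lowest gene of each complex named. Atp5f1b at 1164 TPM and Cox4i1 at 1079 TPM stand highest, and Ndufc1 at 18.0 TPM stands lowest.

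Across the 24 libraries the genes varied little. The standard deviation of log2 TPM had a median of 0.20 over the 79 genes, against 0.29 over the 4130 genes expressed at or above the level of the lowest of them. The steadiest was Uqcrfs1, the Rieske iron-sulfur protein of complex III, with a standard deviation of 0.11. The most variable were Cox7b at 0.46, Ndufc2 at 0.42 and Ndufa12 at 0.38. Within groups their standard deviations were 0.48, 0.36 and 0.41, so much of their spread lay between replicates. For Cox7a2l the standard deviation was 0.32 over all libraries and 0.13 within groups.

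Summed over all 79 genes, the chain took 1.64% to 2.45% of all TPM. At CT14 the sum was 21836 ± 229 TPM in LKO livers and 18772 ± 881 TPM in F livers (SD, n = 3 each), 16.3% higher in LKO. LKO values were above every F value at CT14 for each of the 5 complexes, by 18.0% for complex I, 12.1% for II, 13.0% for III, 18.5% for IV and 15.2% for V. At CT2 the sum was 21286 ± 953 TPM in LKO livers and 19911 ± 3171 TPM in F livers, and the groups overlapped.

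The sums of KO and WT livers overlapped at both times. At CT2 they were 21769 ± 2368 TPM in KO livers and 19827 ± 1957 TPM in WT livers, and at CT14 20706 ± 683 TPM in KO livers and 20855 ± 1518 TPM in WT livers. TPM are shares of a library. Albumin, an abundant secretory transcript of hepatocytes, stood at 36286 ± 5319 TPM in LKO livers and 66130 ± 20868 TPM in F livers at CT14, and at 35105 ± 7760 TPM in KO livers and 61784 ± 15474 TPM in WT livers at CT2. It stood at 36676 ± 2467 TPM in LKO livers and 58957 ± 3875 TPM in F livers at CT2, and at 37683 ± 4950 TPM in KO livers and 58436 ± 8722 TPM in WT livers at CT14. Its part in the sums was not tested. On the same TPM scale with 1 added, the median of all genes was 0.15 higher on the log2 scale in LKO than in F at CT14, and that of the 79 genes 0.22 higher. Scaled instead by counts with TMM factors, the 79 genes had a median of -0.04 in LKO against F at CT14, beside -0.01 for all genes, so the sign of their median change turns with the scale. Sums were formed in TPM only. In bulk tissue, moreover, fewer cells of a type and less RNA per cell cannot be told apart.

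**Figure D2:**
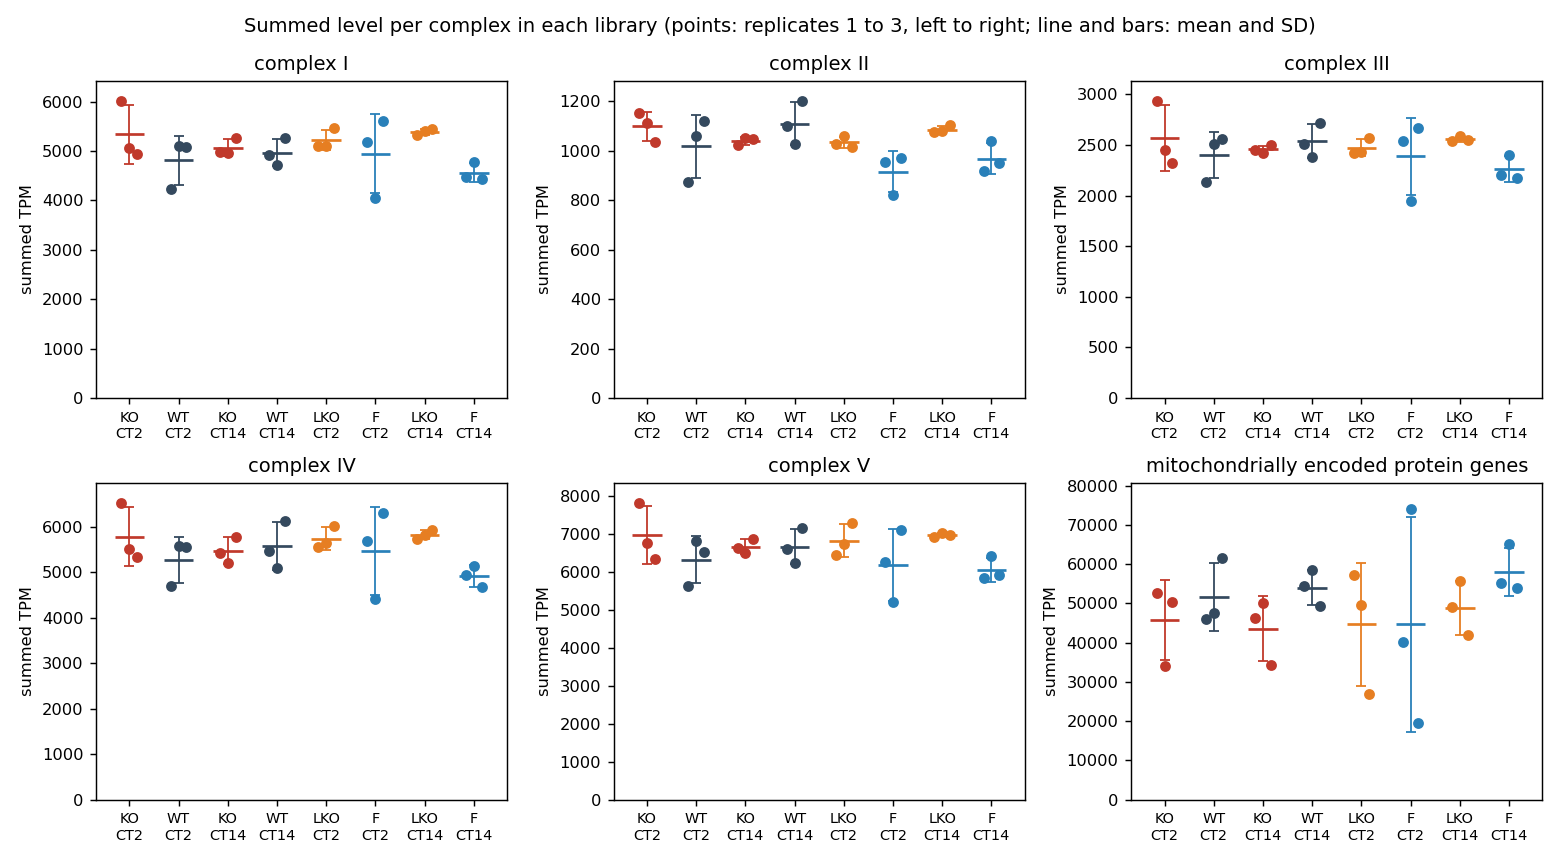
Summed TPM per library for the nuclear genes of complexes I to V and for the 13 mitochondrially encoded protein genes, with each panel from 0; points are replicates and bars show mean ± SD (n = 3). At CT14 the LKO libraries lie above the F libraries for all 5 nuclear sums, while KO and WT libraries overlap.

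Setting KO against WT, averaged over both times, asks what loss of BMAL1 in the whole body did to the chain. Called were Ndufb8 and Ndufc2, accessory subunits of complex I, which holds 36 of the 79 genes. Both fell, and 0 genes rose. A call was a Benjamini-Hochberg adjusted p under 0.05 over all genes tested with edgeR's quasi-likelihood test. Of the 20514 genes tested, 5.4% were called in either direction and 2.29% lower, so 2 of 79 is near the share of all genes. The median log2 fold change of the 79 genes was -0.11, with 60 negative, against 0.01 for all genes tested.

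Ndufb8, an accessory subunit of the membrane arm whose protein is widely used as a read-out of assembled complex I, had 109, 77.6 and 71.2 CPM (counts scaled to library size) in KO livers at CT2, against 94.5, 111 and 121 CPM in WT livers. At CT14 it had 93.6, 74.7 and 83.9 CPM in KO livers, against 116, 126 and 127 CPM in WT livers. The groups overlapped at CT2 through the high KO replicate 1 and were apart at CT14. Over both times Ndufb8 fell by 0.45 ± 0.13 on the log2 scale (SE; edgeR, adjusted p = 0.0470). Ndufc2, another membrane-arm accessory subunit, had 33.3, 18.9 and 22.0 CPM in KO livers at CT2, against 33.4, 30.0 and 37.0 CPM in WT livers. At CT14 it had 20.3, 31.5 and 27.5 CPM in KO livers, against 47.1, 53.1 and 41.0 CPM in WT livers. Its groups, too, overlapped at CT2 and were apart at CT14, and over both times it fell by 0.63 ± 0.18 (edgeR, adjusted p = 0.0481). Both calls lie close to the threshold: each was lost without any of 10 of the 12 KO and WT libraries, with adjusted p of up to 0.123 for Ndufb8 and 0.129 for Ndufc2. The authors deposited a table of all KO against all WT samples, from the same libraries and with its model not stated. The called genes of the chain in the authors' table were Ndufb8 (log2 fold change -0.45, adjusted p = 0.0113) and Ndufc2 (-0.65, adjusted p = 0.0120). Of all genes with an adjusted p, 8.31% were called in it.

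The other genes stayed on the uncalled side in this comparison. Sdhd, a membrane anchor of succinate dehydrogenase, had a log2 fold change of -0.29 ± 0.10 (adjusted p = 0.101). Atp5me, a small membrane subunit of ATP synthase, had -0.39 ± 0.16 (adjusted p = 0.188), and Cox7b had -0.42 ± 0.24 (adjusted p = 0.411). Ndufv3, an accessory subunit beside the NADH site, had the highest value, 0.38 ± 0.15 (adjusted p = 0.150). Leaving out each of the 12 KO and WT libraries in turn gave 0 to 7 calls. The 7 came without KO CT2 replicate 1, the library highest in its group for 75 genes. They were Ndufb8, Ndufc2, Sdhd, Uqcrh, Cox7c, Atp5mf and Atp5me, all lower, beside 4.58% of all genes. Removing a KO library that is high for these genes lowers their KO estimates, so this direction is no independent support. The 17 defining subunits of the 5 complexes reached down to -0.29 for Sdhd, and 0 of them were called. The standard errors of the 79 genes had a median of 0.12 on the log2 scale, which sets the size of change these libraries resolve.

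At CT14 the chain genes lay lower in KO livers nearly throughout in CPM, at a median log2 fold change of -0.22 and 71 of 79 negative, against a median of 0.01 for all genes tested. By complex the medians were -0.18 for I, -0.28 for II, -0.30 for III, -0.27 for IV and -0.21 for V. Yet 0 genes were called by edgeR at CT14, where 5.31% of all genes were. At an unadjusted p under 0.05 there were 14, all lower, a share of 17.7% beside 17.2% of all genes. In CPM, 41 genes had all KO libraries below all WT libraries and 2 had them above, Ndufv3 among them, while 25.9% of all genes were apart in either direction. On the TPM scale, 13 were below and 7 above, with 28.8% of all genes apart. The median on log2(TPM + 1) was -0.03 for the 79 genes and 0.11 for all genes, so the genes sat 0.15 below the median of all genes in TPM.

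The next 2 genes outside the defining subunits were picked after their values were seen, for low values (Ndufa5) and for 1 high library (Cox7b). Ndufa5, an accessory subunit of complex I, had 28.9, 29.6 and 30.7 CPM in KO livers, against 42.2, 49.2 and 44.7 CPM in WT livers. Sdhd had 194, 181 and 181 CPM in KO livers, against 241, 255 and 262 CPM in WT livers. Ndufs1, the large iron-sulfur subunit of complex I, had 118, 110 and 111 CPM in KO livers, against 135, 156 and 148 CPM in WT livers. In each of these the groups were apart, with log2 fold changes of -0.61 ± 0.25 for Ndufa5, -0.44 ± 0.14 for Sdhd and -0.37 ± 0.15 for Ndufs1 and edgeR adjusted p of 0.199, 0.0748 and 0.201. Cox7b, a small subunit of complex IV, had 97.3, 85.7 and 119 CPM in KO livers and 126, 129 and 274 CPM in WT livers, where WT replicate 3 alone was far above the rest. Its log2 fold change was -0.81 ± 0.35 (adjusted p = 0.217).

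The number of calls at CT14 differed between tools, and within a tool with the libraries in the fit. The authors' deposited table listed 8 of the genes as lower and 0 as higher, with 12.3% of all genes that have an adjusted p called. They were Ndufa5 (adjusted p = 0.000302), Ndufc2 (0.00154), Ndufb8 (0.00395), Sdhd (0.00605), Atp5me (0.0219), Uqcrb (0.0228), Ndufb3 (0.0335) and Ndufs1 (0.0482), with log2 fold changes in that table from -0.83 for Ndufc2 to -0.37 for Ndufs1. DESeq2 on the estimated counts of all 24 libraries called 2, Ndufc2 and Sdhd, beside 5.29% of all genes. The edgeR fit without F CT2 replicate 3 and LKO CT2 replicate 3, which are in neither group of this comparison and enter through the shared fit, called 3, beside 8.12% of all genes: Ndufb8, Ndufs1 and Sdhd.

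At CT2 the chain as a whole showed no common direction in KO against WT on the CPM scale. The median log2 fold change was 0.00, with 41 of 79 positive, and 0 genes were called, beside 0.517% of all genes. At an unadjusted p under 0.05 there was 1 gene, beside 8.99% of all genes. That gene was Cox7a2l, a complex IV-related subunit known for joining complexes III and IV into supercomplexes. It had 115, 92.9 and 84.7 CPM in KO livers, against 83.1, 64.4 and 76.6 CPM in WT livers, with no overlap, and a log2 fold change of 0.38 ± 0.14 (edgeR, adjusted p = 0.384). In CPM, 3 genes lay wholly above WT (Cox7a2l, Ndufs5 and Ndufv3) and 0 below, with 14% of all genes apart. In TPM, 14 lay wholly above and 0 below, with 16.6% of all genes apart.

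**Figure D3:**
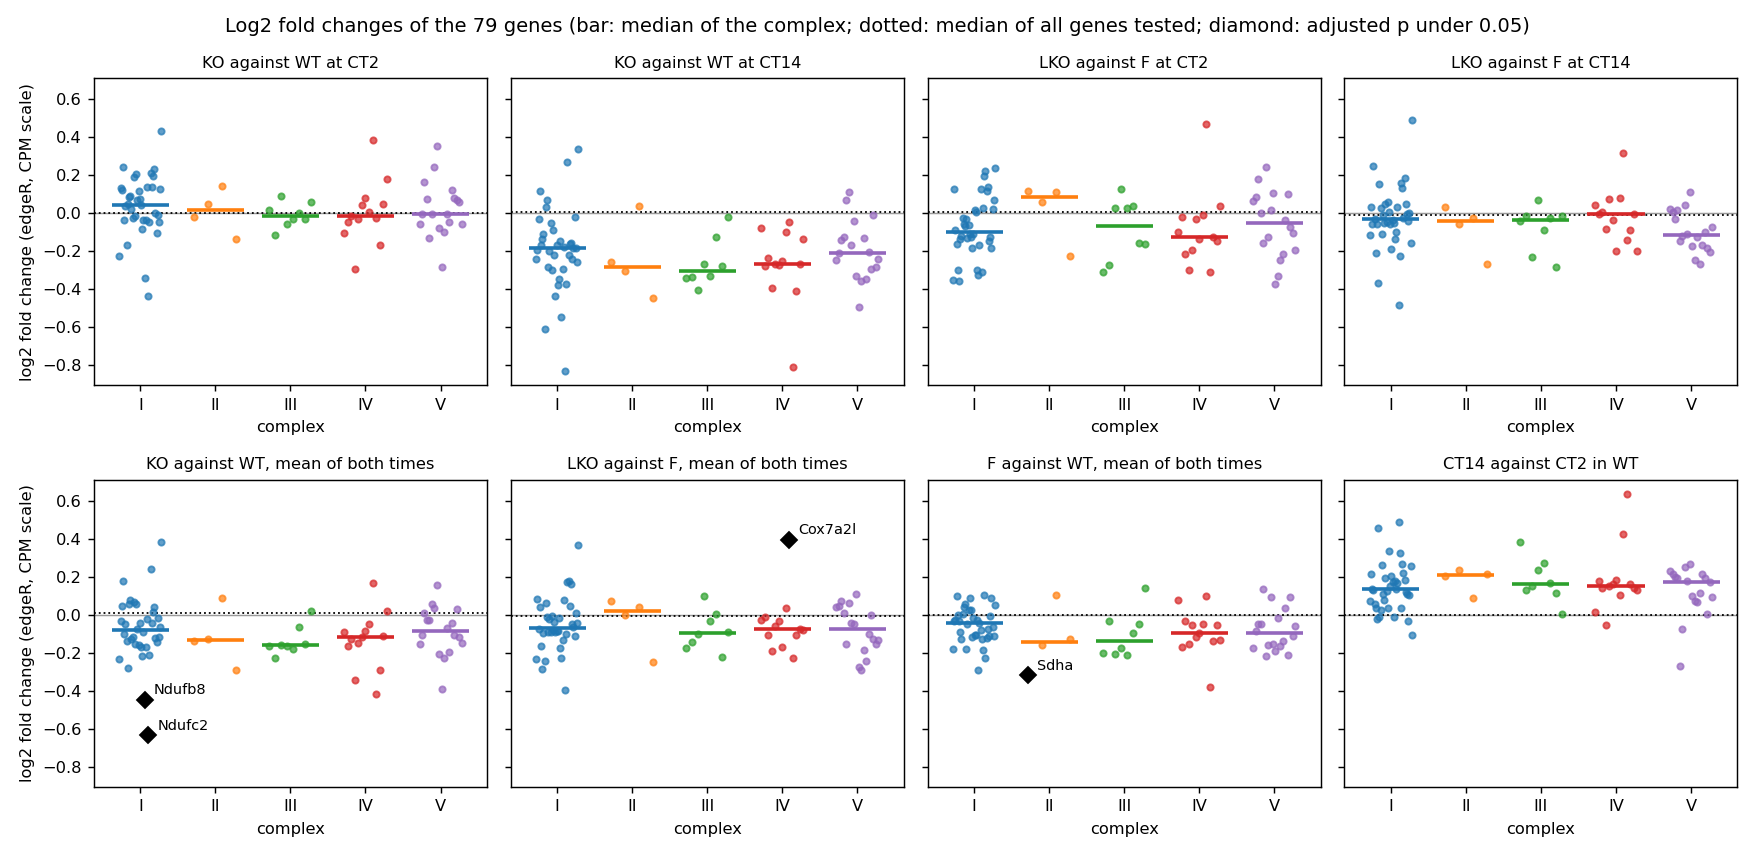
Log2 fold changes from edgeR on the CPM scale for the 79 genes by complex in 8 comparisons; bars are medians of a complex, the dotted line is the median of all genes tested, and diamonds mark genes with an adjusted p under 0.05. KO against WT at CT14 lies below 0 in all 5 complexes (medians -0.18 to -0.30), and the 4 diamonds are Ndufb8 and Ndufc2 in KO against WT, Cox7a2l in LKO against F and Sdha in F against WT.

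The comparison of LKO with F asks what deletion in Alb-Cre cells did. As the mean over both times, Cox7a2l rose and 0 genes fell, 1 call among 79 beside 3.13% of all genes called (1.7% higher). The median of the 79 log2 fold changes was -0.07, with 55 negative, against -0.01 for all genes. The call therefore stood against the direction of most chain genes on this scale.

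At CT2 Cox7a2l had 120, 120 and 116 CPM in LKO livers, against 70.2, 94.6 and 91.7 CPM in F livers. At CT14 it had 131, 130 and 114 CPM in LKO livers, against 107, 98.0 and 96.0 CPM in F livers. All LKO libraries lay above all F libraries at both times, and it was the only one of the 79 to do so in CPM, with 3.11% of all genes apart at both times in either direction. In TPM 5 genes did so (Cox7a2l, Ndufs3, Sdha, Uqcrfs1 and Atp5f1c), with 5.31% of all genes apart. Over both times Cox7a2l rose by 0.39 ± 0.10 on the log2 scale (SE, edgeR adjusted p = 0.0309). It rose by 0.47 ± 0.14 at CT2 (adjusted p = 0.185) and by 0.32 ± 0.14 at CT14 (adjusted p = 0.410). In TPM it stood at 204, 215 and 174 in LKO livers and 106, 131 and 138 in F livers at CT2, and at 231, 214 and 201 in LKO livers and 141, 148 and 145 in F livers at CT14. On log2(TPM + 1) the difference was 0.62 (limma, adjusted p = 0.0002), where the median of all genes was 0.13. The authors' deposited table of all LKO against all F samples gave 0.39 (adjusted p = 0.0295), where 3.65% of all genes were called. The authors' table for CT14 gave 0.32 (adjusted p = 0.0482), where 11.7% were called. The edgeR call was lost without any of 7 of the 12 LKO and F libraries, with adjusted p from 0.0235 to 0.0882 and log2 fold changes from 0.33 to 0.43.

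Cox7a2l in KO against WT had a log2 fold change of 0.17 ± 0.10 as the mean of both times (edgeR, adjusted p = 0.426), and at CT14 91.2 to 103 CPM in KO livers overlapped with 86.7 to 109 CPM in WT livers. The difference between the KO effect and the LKO effect was called for 0 of the 79 genes, where 0.107% of all genes were called. For C57BL/6J mice a shorter form of the Cox7a2l protein is known, and the strain of the LKO and F mice is not in the labels.

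Ndufv3 and Sdhd had values of the same sign in LKO against F as in KO against WT. Ndufv3 had 53.1, 56.0 and 52.3 CPM in LKO livers at CT14, against 43.5, 37.7 and 33.6 CPM in F livers, and at CT2 47.6, 47.5 and 80.7 CPM in LKO livers and 40.7, 43.9 and 64.4 CPM in F livers. The groups were apart at CT14 and overlapped at CT2, where replicate 3 of both groups was high. Same-numbered LKO and F libraries deviated together at CT2, and in 3 of 3 such pairs the LKO value was the higher. Its log2 fold change was 0.37 ± 0.15 over both times (edgeR, adjusted p = 0.253), and the authors' deposited table for CT14 called it higher (0.50, adjusted p = 0.00341). Sdhd had 166, 178 and 175 CPM in LKO livers at CT2, against 224, 191 and 191 CPM in F livers. At CT14 it had 188, 194 and 185 CPM in LKO livers, against 244, 239 and 200 CPM in F livers. It was apart at both times, as was Uqcrh, the hinge protein of complex III, which is named after its values were seen. The log2 fold change of Sdhd was -0.25 ± 0.10 (edgeR, adjusted p = 0.257). Ndufb8 and Ndufc2 had -0.23 ± 0.13 and -0.40 ± 0.18 in LKO against F (adjusted p = 0.516 and 0.363). Atp5mf, a membrane subunit of ATP synthase, had -0.29 ± 0.10 (adjusted p = 0.158) and Ndufa2, an accessory subunit of complex I, had -0.29 ± 0.13 (adjusted p = 0.346).

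At single times 0 genes were called between LKO and F, beside 0.4% of all genes at CT2 and 1.73% at CT14. At each time 2 genes had an unadjusted p under 0.05, beside 8.88% of all genes at CT2 and 10.7% at CT14. At CT14 in CPM, 4 genes lay wholly above F, Cox7a2l, Ndufa6 and Ndufv3 among them, and 11 wholly below, with 23.6% of all genes apart. On the TPM scale 51 lay above and 1, Ndufa5, below, with 34% of all genes apart. By limma on log2(TPM + 1) over both times, 6 genes were higher, beside 9.14% of all genes called: Cox7a2l, Ndufs3, Ndufs5, Sdha, Atp5mc3 and Atp5f1c. There the median of the 79 was 0.15 and that of all genes 0.13. In KO against WT the same tool called 2 genes higher, Cox7a2l (0.34, adjusted p = 0.0209) among them, and 0 lower, beside 9.37% of all genes. The median was then 0.05 for the 79 genes and 0.10 for all genes, so that the sign of the KO median, though not its place below the median of all genes, turns with the scale.

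**Figure D4:**
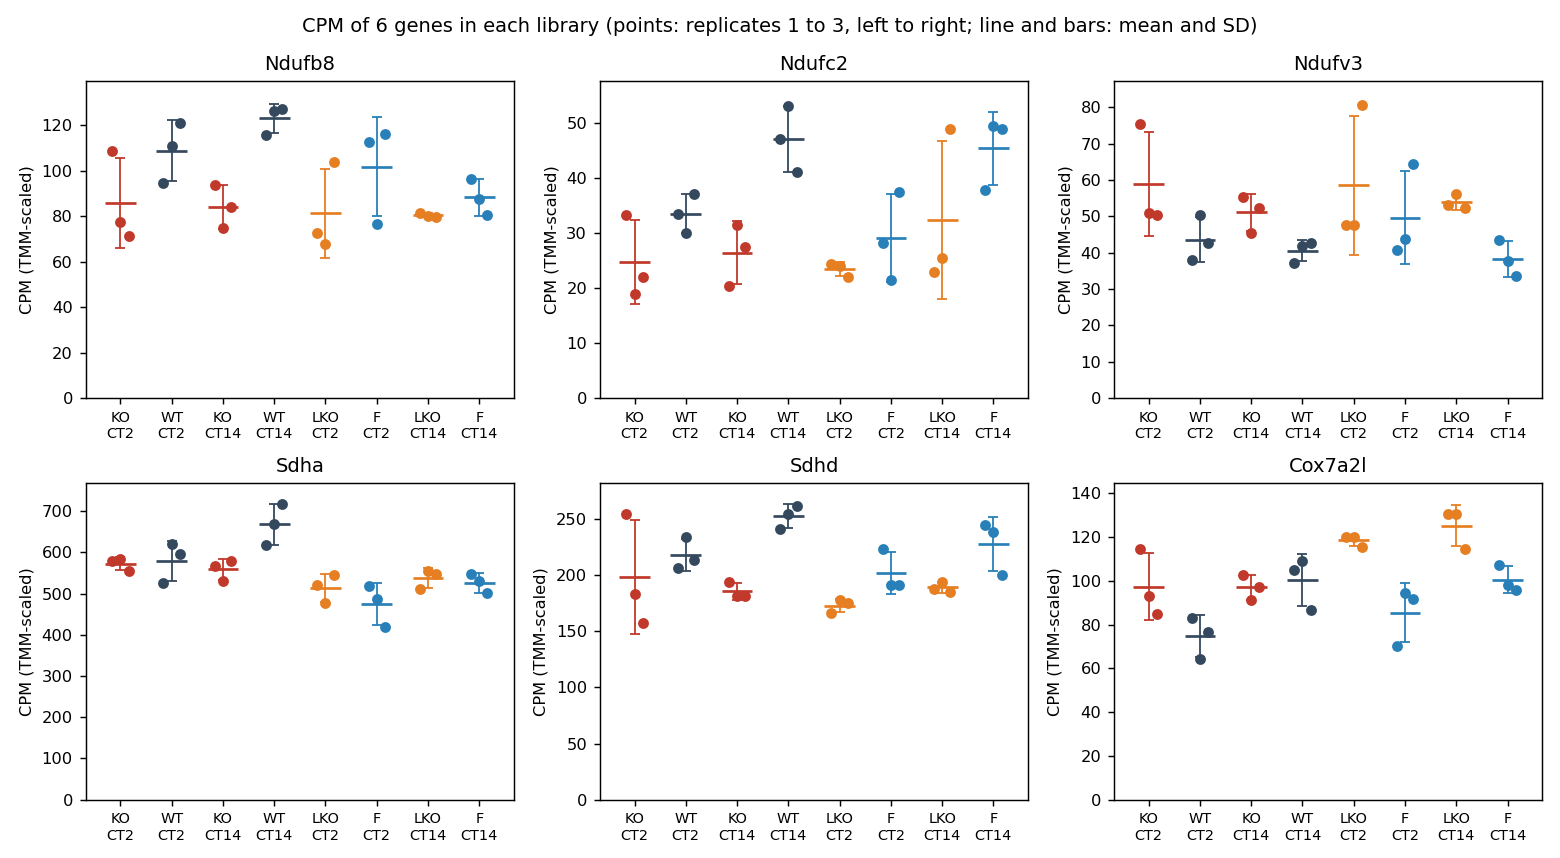
TMM-scaled CPM of Ndufb8, Ndufc2, Ndufv3, Sdha, Sdhd and Cox7a2l in every library, each panel from 0; points are replicates 1 to 3, lines and bars show mean ± SD (n = 3). Cox7a2l is above F in every LKO library at both times, and at CT14 Ndufb8, Ndufc2 and Sdhd lie below WT in every KO library.

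Comparison of the times within a genotype gave 0 called genes in all of the genotypes. In WT livers 71 of 79 genes had higher estimates at CT14 than at CT2, with a median log2 difference of 0.15 beside 0.00 for all genes, of which 2.54% were called. In CPM, 23 lay wholly higher at CT14 and 0 lower, with 21% of all genes apart, and in TPM 9 lay higher and 1 lower, with 19.7% apart. WT CT2 replicate 1 was the lowest of its group for 74 of the 79 genes in TPM, and its part in this difference was not tested. In the edgeR fit 3 of the 79 had an unadjusted p under 0.05, beside 12.4% of all genes. The lowest p was that of Cox7a2l, with 105, 109 and 86.7 CPM at CT14 and 83.1, 64.4 and 76.6 CPM at CT2 and a difference of 0.43 ± 0.14 (adjusted p = 0.141). In KO livers the median was -0.09 with 63 negative, where 0% of all genes were called. In LKO and F livers the medians were 0.00 and -0.04, beside 0.848% and 2.66% of all genes called.

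The difference of the time effects, KO minus WT, had a median of -0.24 with 74 of 79 negative, beside 0.00 for all genes. It was called for 0 of the 79 genes and for 0.799% of all genes, and 2 of the 79 had an unadjusted p under 0.05, beside 9.17% of all genes. On log2(TPM + 1) its median was -0.17, with all genes at 0.03. An example is Ndufb3, an accessory subunit of complex I picked after its value was seen, at -0.55 ± 0.23 (adjusted p = 0.426). It had 36.6, 34.5 and 41.1 CPM in KO livers and 48.4, 54.9 and 48.5 CPM in WT livers at CT14, and 54.9, 38.1 and 37.0 CPM in KO livers and 38.9, 42.0 and 39.2 CPM in WT livers at CT2. WT CT2 replicate 1, which was low, and KO CT2 replicate 1, which was high, both enter this difference, and their part in it was not tested. LKO minus F had a median of 0.02, with 0 genes called and 0.112% of all genes called.

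The controls were also set side by side. F and WT differ in allele and possibly in strain and cohort, which cannot be told apart. As the mean over both times Sdha fell in F, 1 call among 79 beside 2.54% of all genes. The median log2 fold change of the 79 genes was -0.08, with 61 negative, against 0.00 for all genes. At CT14 in CPM, 22 genes lay wholly lower in F and 0 higher, with 17.2% of all genes apart, and in TPM 28 lay lower and 2 higher, with 15.5% apart. The controls thus differed from each other in the direction in which KO differed from WT (60 of 79 negative), and both comparisons share the WT libraries. Sdha had 519, 487 and 418 CPM in F livers at CT2, against 525, 619 and 595 CPM in WT livers. At CT14 it had 548, 531 and 500 CPM in F livers, against 617, 669 and 716 CPM in WT livers. All F libraries lay below all WT libraries at both times, as 2.94% of all genes did in either direction, and the fall was 0.32 ± 0.08 on the log2 scale (SE; edgeR, adjusted p = 0.0424). The call was lost without any of 10 of the 12 F and WT libraries, with adjusted p of up to 0.116, and with limma on TPM. Among the 5 largest differences were also Cox7b at -0.38 ± 0.24 (adjusted p = 0.550), Ndufb8 at -0.29 ± 0.13 (0.310), Ndufs3 at -0.23 ± 0.11 (0.348) and Atp5if1 at -0.22 ± 0.14 (0.552), none of them called. In LKO against F, Sdha had 0.07 ± 0.08 (edgeR, adjusted p = 0.866).

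Of the 7 genes with an E-box in the promoter window, 0 were called by edgeR in any comparison. Depending on the comparison, 0% to 5.4% of all genes were called, so 0 of 7 does not set these genes apart. By limma on log2(TPM + 1), Atp5mc3 was called higher in LKO against F (0.31, adjusted p = 0.0491), beside 9.14% of all genes. As means of both times, the edgeR log2 fold changes of the 7 genes ran from -0.21 to 0.08 in KO against WT. In LKO against F they ran from -0.19 to 0.11, and the medians were -0.07 and 0.00. The other 58 genes with a promoter had medians of -0.11 and -0.07. Ndufv1 had -0.12 ± 0.13 in KO against WT (adjusted p = 0.766) and 0.01 ± 0.13 in LKO against F.

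The mitochondrially encoded partners of these subunits were measured in the same libraries. Of the 13 protein genes, 0 were called in any comparison, with 3 lower at an unadjusted p under 0.05 in KO against WT, beside 17.9% of all genes, and 1 in LKO against F, beside 12.8%. Their median log2 fold changes were -0.40 in KO against WT and -0.39 in LKO against F, as means of both times. The medians of all genes were 0.01 and -0.01. The mitochondrially encoded share of counts ran from 1.37% to 4.92% within F CT2 alone, and its part in these medians was not tested. The summed level of the 13 genes ran from 19656 TPM in F CT2 replicate 3 to 74023 TPM in F CT2 replicate 2. These are 0.867 and 4.50 times the summed level of the 79 nuclear genes in those libraries. The library preparation selects polyadenylated RNA, and what this does to the short-tailed mitochondrial transcripts was not tested.

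Around the chain, some genes of the same pathways were called, beside 5.4% of all genes in KO against WT and 3.13% in LKO against F as means of both times. Coq8a, a kinase-like protein of coenzyme Q synthesis, rose by 1.22 ± 0.22 in KO against WT and by 0.97 ± 0.22 in LKO against F (adjusted p = 0.00141 and 0.0129). Of its list of 18 carriers and other chain genes, 1 rose and 2 fell in KO, namely mitochondrial glycerol-3-phosphate dehydrogenase Gpd2 (-0.57, adjusted p = 0.0239) and the coenzyme Q hydroxylase Coq7 (-0.49, adjusted p = 0.0440). Of 52 assembly factors, 2 rose and 0 fell in KO, Cox19 (0.56, adjusted p = 0.0110), a copper-handling factor of complex IV, and Atpaf1 (0.38, adjusted p = 0.0384), a factor for the ATP synthase. In LKO 1 of the 52 rose, again Cox19 (0.59, adjusted p = 0.0107).

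Among 18 genes of the tricarboxylic acid cycle and pyruvate entry, 0 rose and 2 fell in KO over both times (beside 5.4% of all genes), the pyruvate dehydrogenase subunit Pdhb (-0.39, adjusted p = 0.0252) among them. At CT14 Pdhb fell by 0.83 in KO (adjusted p = 0.00102). In LKO 2 of the 18 fell (beside 3.13% of all genes), Idh2 (-0.55, adjusted p = 0.0255) and Suclg2 (-0.36, adjusted p = 0.0381). In WT livers Pdhb was higher at CT14 than at CT2, by 0.81 (adjusted p = 0.00209). Of 28 carrier, import and membrane genes, 1 fell in KO, the cristae protein Immt (-0.32, adjusted p = 0.0365), and 1 rose in LKO, the import receptor Tomm20 (0.35, adjusted p = 0.0431), shares near or under those of all genes. Of 78 mitochondrial ribosomal proteins, 0 were called in KO or LKO.

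Of 21 regulators of mitochondrial biogenesis, 0 were called in KO against WT or LKO against F as means of both times. Of all genes, 5.4% and 3.13% were called there. In KO against WT, Esrra, encoding ERR alpha, had -0.12 ± 0.15, Gabpa -0.16 ± 0.23, Nrf1 -0.11 ± 0.11, Ppargc1a, encoding the coactivator PGC-1 alpha, -0.24 ± 0.31 and Tfam, the mitochondrial DNA packaging factor, -0.02 ± 0.15. Between times in WT livers, Ppargc1b rose by 1.28 ± 0.28 at CT14 (adjusted p = 0.0128) and Nrf1 fell by 0.64 ± 0.15 (adjusted p = 0.0263). In F livers Ppargc1b rose by 1.04 ± 0.28 at CT14 (adjusted p = 0.0485). Of all genes, 2.54% were called between times in WT livers and 2.66% in F livers. In KO and LKO livers 0 of the 21 were called between times, beside 0% and 0.848% of all genes. Ppargc1b had a mean of only 1.01 TPM.

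Some levels are uncertain because closely similar genes could share reads. Another gene with at least 95% identity over at least 50% of the transcript existed for 8 of the 79. For 2 of them such genes made up at least 10% of the summed level. The shares were 23.8% for Atp5mg and 92.1% for the pseudogene Cox5b-ps, where the similar gene is Cox5b. A further limit is overlap with expressed genes on the opposite strand, found for 18, such as Ndufs1 with Eef1b2 and Cox4i1 with Emc8. Whether the counting used strand is not given in the sources used here. For Ndufb8, Ndufc2, Cox7a2l, Sdha, Sdhd and Ndufv3 this search found neither a near copy nor such an overlap. It used a gene's longest protein-coding transcript where there was one, 2142 bases for Ndufb8, so copies of a shorter form could be missed.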

How the data were processed

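Polyadenylated liver RNA was sequenced from stranded libraries, 3 per group, per the labels' protocols. The submitters' processing notes name fastp 0.23.2 and HISAT2 2.2.1, with StringTie 1.3.1 and build GRCm39. Which gene annotation was used, and whether counting used strand, is not stated in them.

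The authors deposited estimated counts per gene, not normalized, and a second table in TPM. Their comparison tables hold deposited log2 fold changes, p-values, a mean normalized signal per gene and the Wald score. How these comparisons were specified was not stated in the labels.

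Estimated counts were rounded and fitted with edgeR 4.0.16 in R 4.3.3. Genes of low count were removed with filterByExpr (minimum count 10, minimum total 15), which left 20514 genes, including all 79 of the chain. TMM scaling and 1 robust quasi-likelihood model of 8 group means over 24 libraries gave 14 contrasts. Benjamini-Hochberg adjusted p under 0.05 over all genes tested was a call. Where a sentence names no tool, its adjusted p is edgeR's. Log2 fold changes have standard errors and levels have the standard deviation (n = 3). CPM were TMM-scaled. Total counts were 8.90e+07 to 1.32e+08 per library, and the lowest count of any chain gene in any library was 500, so that the spread between libraries limits the precision more than counting does.

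Alternatives were DESeq2 1.42.0, limma 3.58.1 on log2(TPM + 1) and log2(TPM + 0.1), RLE size factors, no filter, counts divided by 4, a replicate block, leaving out each library, and leaving out 2 pairs of libraries. Same-numbered samples deviated together in LKO and F at CT2 (correlations 0.321 to 0.584 in 3 of 3 pairs, from the data, not the labels), and in no other pair of groups were all 3 over 0.1. With the block 0 chain genes were called there, as without it. The block gave each replicate number an effect shared by all 8 groups. It cannot account for a pairing confined to LKO and F at CT2, and no paired fit of these groups was run.

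Genes named are those called, the 5 with the largest change in each genotype comparison over both times, the highest and lowest of each complex, 17 defining subunits, the genes on either side of the TPM limit, and, of the other lists, those called and the main regulators; a few that meet this rule are not reported here, and others are marked in the text or appear in the authors' table. The members and lists were chosen with earlier results of these data known. The edgeR fit was run on simulated counts for KO against WT over both times only, with genes varying independently. Shifts shared by many genes of a library were not simulated. Near copies were sought with blastn 2.17.0 in GENCODE M21 transcripts. Promoters and annotation are from GRCm38.p6, not the build of the counts, and served for sequence and names only.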

Additional observations from a re-analysis of the deposited data

How the results depend on the processing

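Of the results for single genes and sums, 826 values under an alternative kept their direction and call or stayed within the replicate spread, 56 lost the call, 17 gained it, 14 sums moved and 0 reversed. For KO against WT over both times (2 genes called), RLE size factors gave 0, no filter 0, the replicate block 1, leaving out KO CT2 replicate 2 and KO CT14 replicate 1 gave 0, and leaving out each library gave 0 to 7. For KO against WT at CT2 (0 called), limma gave 1 with each pseudocount. At CT14 (0 called), DESeq2 gave 2 and leaving out F CT2 replicate 3 and LKO CT2 replicate 3 gave 3. For LKO against F over both times (1 called), no filter gave 0, limma gave 6 with each pseudocount and leaving out each library gave 0 to 1. At CT2 and at CT14 (0 called), limma gave 1 each. For F against WT (1 called), RLE, no filter, counts divided by 4, limma with both pseudocounts, the replicate block and leaving out KO CT2 replicate 2 with KO CT14 replicate 1 each gave 0, and leaving out each library gave 0 to 1. With the replicate block the adjusted p was 0.0456 for Ndufb8, 0.0564 for Ndufc2, 0.0379 for Cox7a2l and 0.0622 for Sdha. The block changed no other call among the members. Only at CT2 in LKO and F did same-numbered samples deviate together, which a block shared by all groups does not model. The cause of these shifts was not tested. With 3 libraries a group, the median standard error was 0.12 for KO against WT over both times, and the called changes lie near the limit of what this resolves.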
